A study of Mus musculus with 12 samples.

Results

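The forkhead genes encode transcription factors that bind DNA through a winged-helix domain. Chromatin over 10 of them was examined in cultured mouse mesenchymal stem cells, in cells from young mice and from old mice. The set holds 6 genes that act in mesoderm and connective tissue (Foxc1, Foxc2, Foxd1, Foxf1, Foxf2, Foxl1), 2 FoxO factors that respond to insulin signalling (Foxo1, Foxo3) and 2 FoxP repressors (Foxp1, Foxp2). A region was taken as a member when it overlapped the annotated body of one of these genes or the 50 kb on either side of it. This position rule used no measured value, but the genes were chosen with earlier results of these data known. It found 61 regions among the 59664 of both tables, namely 32 of 31617 H3K27ac regions and 29 of 28047 H3K27me3 regions, for 10 of 21827 protein-coding genes. Every one of the 61 carried the authors' tag for both ages.

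The libraries were made by CUT&RUN, in which an antibody leads a nuclease to a histone mark in permeabilised cells so that the DNA beside the mark is cut out and sequenced. The cells of each sample were shared between an antibody to H3K27ac and one to H3K27me3, and all cells had been grown at 2% O2. Young mice were 3 to 5 months old and old mice 18 to 22 months old, with 3 libraries for each mark and age. The labels named neither strain, sex nor tissue of origin and did not say whether samples came from separate mice, so the tests measure the spread between these samples, which may be technical.

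Acetylation of lysine 27 on histone H3 is deposited by CBP and p300 and marks active promoters and enhancers. Trimethylation of the same residue is deposited by Polycomb repressive complex 2 and marks silenced developmental genes, often as broad domains. A single lysine cannot carry both groups, so a region with both marks holds different histone tails, alleles or cells. Foxc1 and Foxc2 shape paraxial mesoderm and vessels, and Foxc1 maintains stromal niche cells of bone marrow. Foxf1 and Foxf2 act in mesenchyme that receives Hedgehog signals, Foxl1 in gut mesenchyme, and Foxd1 in renal stroma. Foxo1 and Foxo3 are held in the cytoplasm when Akt phosphorylates them and drive stress-response genes when insulin signalling is low.

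Library totals, recovered with an assumed constant length of 0.5 kb behind the signal, ranged from 2750953 to 5541429 reads for H3K27ac. For H3K27me3 they ranged from 3622108 to 9947515 reads, and old replicate 2 was the shallowest for both marks. The shares of reads in regions rest on the same assumption. Between 33.4% and 41.4% of H3K27ac reads lay in regions. For H3K27me3 this share was 62.3% to 66.6% in young and 53.8% to 60.8% in old libraries. The 3 reads used as a floor were worth between 1.08 and 2.18 units of deposited signal in H3K27ac libraries and between 0.603 and 1.66 in H3K27me3 libraries. Of 10 stromal marker genes, 9 had H3K27ac alone over the start site and Nt5e had both marks. Markers of other cells were mostly without H3K27ac there. It covered 2 of 7 haematopoietic starts (Cd68, Csf1r), 1 of 5 endothelial starts (Pecam1) and 0 of 4 epithelial and neural starts, and the defining leukocyte genes Ptprc and Spi1 had neither mark. Whether other cells contributed to the results below was not tested.

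Sequences of 4 promoters are shown first because they stand for the chromatin states found at the start sites. Each is the 250 bases before the RefSeq start on the strand of the gene (GRCm38.p6), with CpG dinucleotides in capitals. Foxf2 carried both marks, Foxd1 carried H3K27me3 alone, and Foxc1 and Foxo1 carried H3K27ac alone with H3K27me3 nearby.
Foxf2, chr13:31625566-31625815, + strand: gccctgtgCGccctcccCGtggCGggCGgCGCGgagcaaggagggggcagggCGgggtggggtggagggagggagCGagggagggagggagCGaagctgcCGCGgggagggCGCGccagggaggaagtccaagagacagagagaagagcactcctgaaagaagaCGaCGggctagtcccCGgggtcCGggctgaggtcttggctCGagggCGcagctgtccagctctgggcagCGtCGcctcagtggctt
Foxd1, chr13:98353995-98354244, + strand: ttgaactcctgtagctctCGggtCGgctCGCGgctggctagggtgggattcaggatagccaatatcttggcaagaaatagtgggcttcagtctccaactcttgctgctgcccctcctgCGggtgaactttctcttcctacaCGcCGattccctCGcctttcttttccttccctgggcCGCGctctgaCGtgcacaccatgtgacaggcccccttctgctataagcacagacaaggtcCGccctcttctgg
Foxc1, chr13:31806396-31806645, + strand: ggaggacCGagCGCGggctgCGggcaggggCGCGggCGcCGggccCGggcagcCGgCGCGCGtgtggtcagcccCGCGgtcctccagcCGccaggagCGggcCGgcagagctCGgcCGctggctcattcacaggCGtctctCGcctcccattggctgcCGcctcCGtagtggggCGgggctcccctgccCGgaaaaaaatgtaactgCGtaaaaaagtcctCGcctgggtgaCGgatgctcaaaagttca
Foxo1, chr3:52268087-52268336, + strand: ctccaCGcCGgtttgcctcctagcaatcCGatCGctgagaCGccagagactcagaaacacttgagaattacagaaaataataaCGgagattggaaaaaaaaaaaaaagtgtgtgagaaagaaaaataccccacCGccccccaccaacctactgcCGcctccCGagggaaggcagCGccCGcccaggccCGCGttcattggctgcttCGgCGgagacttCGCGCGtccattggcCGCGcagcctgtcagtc
The Foxf2 stretch held 21 CpG, the Foxd1 stretch 12, the Foxc1 stretch 29 and the Foxo1 stretch 20, against a median of 6 over 32851 promoter windows of that length. RefSeq windows were matched for 6 of the 10 genes (Foxc1, Foxd1, Foxf2, Foxo1, Foxo3, Foxp1), which gave 8 windows. The forkhead core letters GTAAACA, searched on both strands (TGTTTAC on the other), were found in 0 of these 8 windows and in 3.17% of all windows, and the letters alone say nothing about binding. CpG density did not sort the states, since Foxf2 with both marks and Foxo1 with H3K27ac alone had nearly the same number. The 3 Foxp1 windows ranged from 3 CpG at its principal start to 34 at an internal start, although all of Foxp1 lay in a single H3K27ac region.

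The centres of 2 distal regions upstream of Foxf2 are printed as well, because their values in young and old libraries are described further on. Both are 300 bases of the GRCm38 plus strand with CpG in capitals.
H3K27me3 region at 31.8 kb upstream, chr13:31588351-31588650: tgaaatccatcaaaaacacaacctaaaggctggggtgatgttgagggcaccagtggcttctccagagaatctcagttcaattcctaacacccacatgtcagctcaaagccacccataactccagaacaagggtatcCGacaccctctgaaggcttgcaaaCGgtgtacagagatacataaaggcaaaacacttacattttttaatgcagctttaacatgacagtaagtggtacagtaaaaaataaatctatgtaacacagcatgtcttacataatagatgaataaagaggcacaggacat
H3K27ac region at 24.8 kb upstream, chr13:31599851-31600150: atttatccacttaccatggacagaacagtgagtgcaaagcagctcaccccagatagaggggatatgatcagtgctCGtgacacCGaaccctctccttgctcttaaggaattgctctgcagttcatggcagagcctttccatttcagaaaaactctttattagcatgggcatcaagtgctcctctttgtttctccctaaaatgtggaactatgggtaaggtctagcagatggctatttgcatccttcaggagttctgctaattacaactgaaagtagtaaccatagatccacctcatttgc
Each stretch held 2 CpG.

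The first question was which mark lay over the start sites. Foxc1, Foxc2, Foxl1, Foxo1, Foxo3 and Foxp1 had H3K27ac alone over the principal start. Foxd1, Foxf1 and Foxp2 had H3K27me3 alone, and Foxf2 had both. Over all protein-coding genes 47.8% had H3K27ac alone, 24.7% H3K27me3 alone, 3.16% both and 24.3% neither. None of the 10 forkhead genes was in the last class. Among the 34 other forkhead genes of the annotation the order was the opposite one, with 10 under H3K27ac alone (among them Foxk1, Foxk2, Foxj3 and Foxm1), 18 under H3K27me3 alone (among them Foxa1, Foxa2 and Foxl2), 2 under both (Foxa3, Foxd2) and 4 under neither.

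Levels were compared between genes per kb of region, since the deposited signal grows with region length. This quantity, the scaled signal per kb, is the number of reads per 1000000 reads of the library and per kb after median-of-ratios scaling. The deposited signal was assumed to have been divided by a constant 0.5 kb, which is taken out here. The signal of a region divided by its length in kb is therefore larger than this level by that constant. H3K27me3 over the Foxf1 start had the highest mean, with 2.60 ± 0.17 in young and 2.19 ± 0.28 in old libraries (SD, n = 3), at the 99.9th percentile of all H3K27me3 regions. Foxf2 followed with 2.01 ± 0.29 and 2.07 ± 0.54, and Foxd1 with 2.04 ± 0.32 and 1.70 ± 0.27. Foxf1 lay above Foxd1 in each of the 6 libraries, while Foxf2 overlapped with both and takes no fixed place among them. Foxp2 was lower, with 1.16 ± 0.11 in young and 0.984 ± 0.048 in old libraries. For H3K27ac, Foxc1 (1.55 ± 0.24 young, 1.54 ± 0.24 old), Foxp1 (1.32 ± 0.08 young, 1.44 ± 0.04 old) and the block over Foxc2 and Foxl1 (1.15 ± 0.21 young, 1.37 ± 0.34 old) were the densest. Foxo1, Foxf2 and Foxo3 lay between 0.877 and 1.10 on this scale, and neighbours in this order did not separate.

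**Figure D1:**
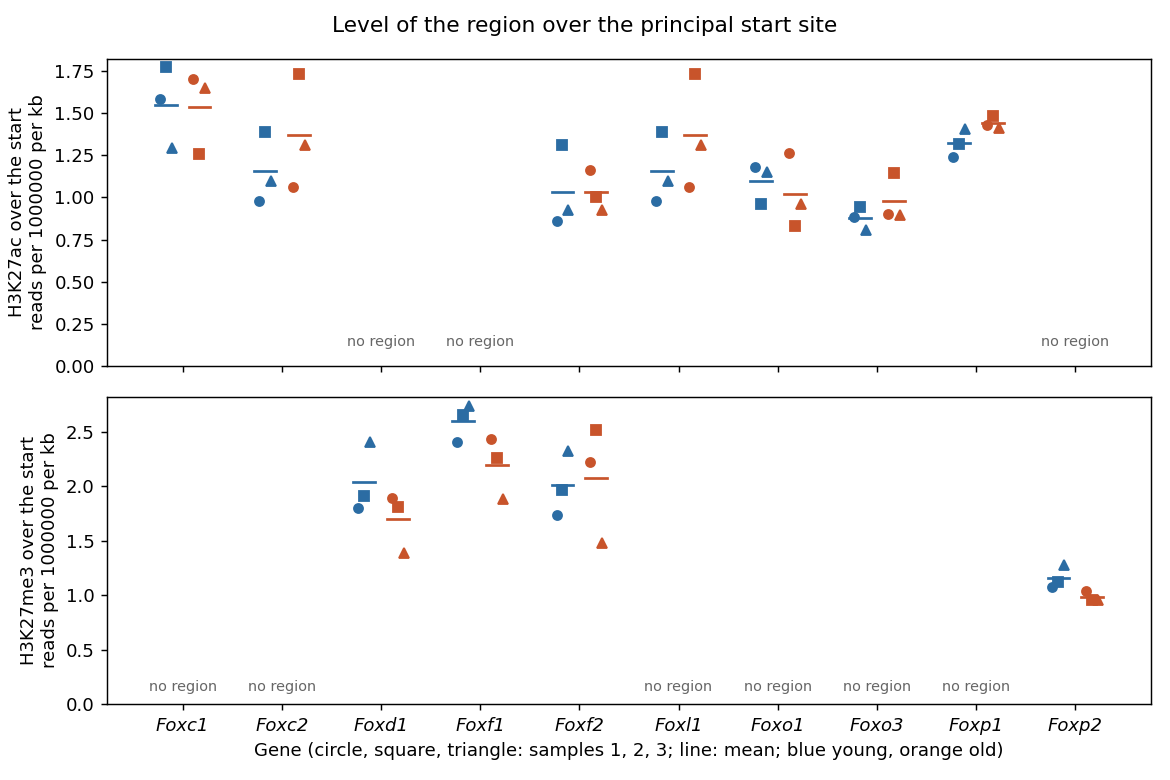
Level of the H3K27ac (top) and H3K27me3 (bottom) region over the principal start site of each gene, in scaled signal per kb of region; each symbol is 1 library (circle, square and triangle for samples 1, 2 and 3), lines are means, blue is young and orange is old. Only Foxf2 has values in both panels, and at Foxp1 (H3K27ac) and Foxp2 (H3K27me3) the young and old libraries do not overlap.

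Next, young and old libraries were compared in every region with limma, fitted over the whole table of a mark. No forkhead region passed an adjusted p of 0.05 in either mark. In all regions 0.0822% passed for H3K27ac and 0.488% for H3K27me3. At an unadjusted p under 0.05 there were 8 of 32 H3K27ac regions and 8 of 29 H3K27me3 regions, which is 25.0% and 27.6%, beside 9.60% and 13.9% of all regions. The genes were chosen with earlier results of these data known, so these shares cannot show an excess. With edgeR on recovered reads 0 H3K27ac regions and 1 H3K27me3 region passed, and with DESeq2 0 and 0. Among the H3K27ac regions given with values below, DESeq2 gave an adjusted p only over the starts of Foxp1, Foxo3 and Foxc1. It gave none for the H3K27me3 region that edgeR called, so its counts could not include regions without one. The median log2 fold change of the forkhead regions, old against young, was -0.07 for H3K27ac and 0.02 for H3K27me3, where the medians of all regions were -0.003 and -0.008.

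The young and old libraries did not overlap in 4 H3K27ac regions that were lower in old and in 1 that was higher, out of 32. Over all H3K27ac regions this held for 7.42% (lower) and 7.09% (higher). For H3K27me3 it held for 1 region that was lower and 2 that were higher, out of 29, beside 10.6% and 8.56% of all regions. The lower H3K27ac regions lay upstream of Foxf2 (2 regions), in the Foxo1 intron and downstream of Foxp1. Some regions below are given with values because of how they read, outside the naming rule stated with the processing, and they were chosen after their values were seen.

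**Figure D2:**
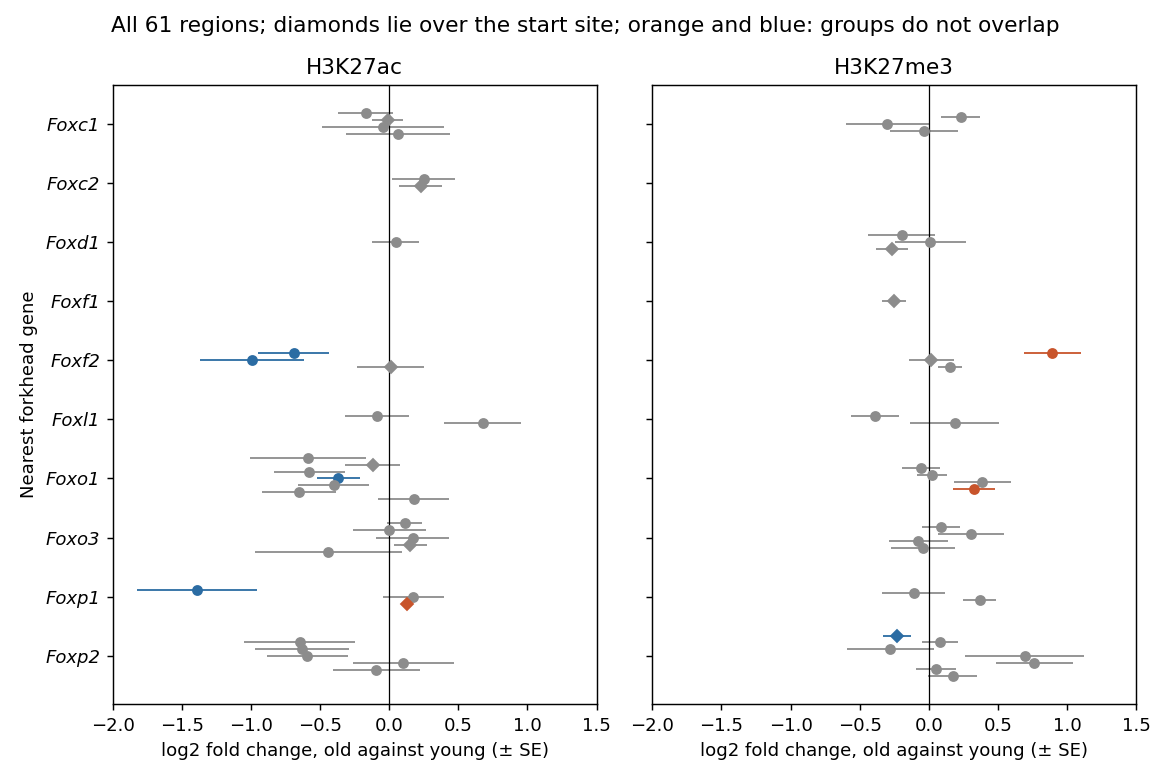
log2 fold change of signal, old against young, with its standard error for all 61 regions, grouped by the nearest forkhead gene; diamonds lie over a principal start site, orange marks regions in which all old libraries were higher, blue those in which all were lower, and grey those that overlap. The region 31.8 kb upstream of Foxf2 stands furthest to the right for H3K27me3 (0.89), and a 2.5-kb region downstream of Foxp1 furthest to the left for H3K27ac (-1.39).

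Foxf2 (ENSMUSG00000038402, chr13:31625816-31631403, mm10, plus strand) had the largest difference in the balance of the marks among the 10 genes with windows of 50 kb and all libraries, but not with windows of 10 kb. The 11-kb H3K27me3 region at chr13:31583001-31594000 ends 31.8 kb upstream of the start and touches no start of a protein-coding gene. Its scaled signal (the deposited signal after median-of-ratios scaling, as in all values per library here) was 11.5, 11.5 and 12.3 in young libraries and 16.2, 33.0 and 20.6 in old ones. All 3 old libraries lay above the young ones, and old replicate 2, the shallowest, was the highest. The fold was 1.86 (log2 0.89 ± 0.20, SE, n = 3 per age), with an adjusted p of 0.0529 by limma. It therefore missed the threshold, which it passed with edgeR on recovered reads (adjusted p = 0.0159), with a replicate block (0.0171), with a pseudocount of 2 (0.0446), on the signal as deposited (0.0395) and without old replicate 1 (0.0265). Without old replicate 2 the log2 fold change was 0.62 with an adjusted p of 0.0744. The adjusted p was 0.259 in limma without trend and robust moderation, and 0.256, 0.201 and 0.210 without young replicate 1, 2 or 3.

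The H3K27ac regions on both sides of this stretch had lower values in old libraries. The 3-kb region at chr13:31576501-31579500, 46.3 kb upstream, had signals of 13.4, 13.3 and 14.1 in young and 10.4, 5.50 and 9.68 in old libraries. Its young libraries were nearly equal and all old ones were lower, with a log2 fold change of -0.69 ± 0.26 and an adjusted p of 0.344 by limma. The 2-kb region at chr13:31599001-31601000, 24.8 kb upstream, read 5.23, 7.50 and 5.26 in young and 2.79, 2.36 and 3.06 in old libraries. Old libraries were again all lower (log2 fold change -0.99 ± 0.38, adjusted p = 0.361), but the region held only 10.2 reads per library on average. Neither passed the threshold as reported or in any of the 14 alternatives that gave an adjusted p, and DESeq2 gave none for either.

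Over the Foxf2 start itself neither mark separated the ages. H3K27ac at chr13:31625001-31630500 read 9.47, 14.4 and 10.2 in young and 12.8, 11.0 and 10.2 in old libraries, a log2 fold change of 0.01 ± 0.24. H3K27me3 at chr13:31599001-31631500 read 113, 128 and 151 in young and 145, 164 and 96.0 in old libraries, a log2 fold change of 0.02 ± 0.16, and its spread in old libraries was wide. This 32.5-kb H3K27me3 region contains 100% of the H3K27ac region over the start and 100% of the one 24.8 kb upstream. The directions of both start-site values turned under other settings and are given with the limits.

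**Figure D3:**
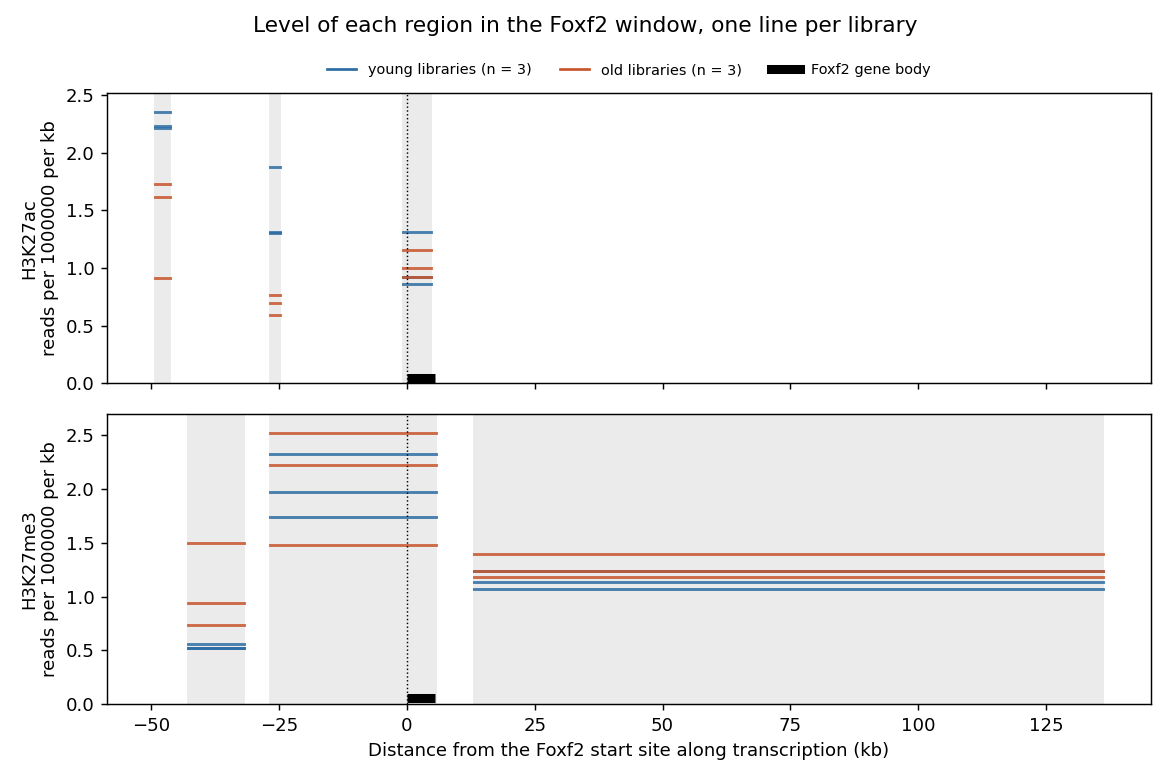
Level of each H3K27ac (top) and H3K27me3 (bottom) region of the Foxf2 window in scaled signal per kb, against distance from the start site in kb; each line is 1 library (blue young, orange old), grey bands are regions and the black bar is the gene. In the distal upstream regions the blue lines are on top for H3K27ac and the orange lines for H3K27me3, while over the start the colours mix.

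Foxc1 (ENSMUSG00000050295, chr13:31806633-31812476), the neighbour of Foxf2 on chromosome 13, lay wholly in a 33.5-kb H3K27ac region (chr13:31800501-31834000). Its signal was 106, 119 and 86.5 in young and 114, 84.1 and 111 in old libraries. The ages overlapped fully, with a log2 fold change of -0.01 ± 0.11 (adjusted p = 0.988 by limma). A small H3K27me3 region (chr13:31797501-31802500) ends 4.13 kb upstream of the start and overlaps the H3K27ac block by 2 kb. It read 7.51, 5.43 and 8.63 in young and 6.11, 9.10 and 3.17 in old libraries, with no separation (log2 fold change -0.30 ± 0.30). A 123-kb H3K27me3 domain (chr13:31639001-31762000) fills most of the distance between Foxf2 and Foxc1 and read 263, 278 and 305 in young and 305, 343 and 292 in old libraries. The ages overlapped there as well (log2 fold change 0.15 ± 0.09, adjusted p = 0.455). The contrast upstream of Foxf2 therefore had no counterpart with separated groups in the Foxc1 window, which held 0 separated regions of either mark.

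Foxf1, Foxc2 and Foxl1 lie next to each other on chromosome 8 and share their regions, so they are not independent. Foxf1 (ENSMUSG00000042812, chr8:121084386-121088144) lay inside a 128.5-kb H3K27me3 domain (chr8:120968501-121097000). The domain read 619, 683 and 703 in young and 626, 581 and 483 in old libraries. Old replicate 1 fell within the young range and the other two below it (log2 fold change -0.25 ± 0.09, adjusted p = 0.191 by limma). No H3K27ac region covered the Foxf1 start, and the nearest began 18.1 kb downstream of it.

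Past the edge of that domain the state was the reverse. A 17.5-kb H3K27ac block (chr8:121112001-121129500) covered all of Foxc2 (ENSMUSG00000046714, chr8:121116171-121118895) and the start of Foxl1 (ENSMUSG00000097084, chr8:121127940-121130644). It read 34.3, 48.5 and 38.5 in young and 37.1, 60.5 and 45.9 in old libraries, which overlapped (log2 fold change 0.23 ± 0.16, adjusted p = 0.688). An upstream H3K27ac region (chr8:121102501-121109500) covers the start of Mthfsd, and read 13.7, 9.81 and 13.5 in young and 12, 16.5 and 15.8 in old libraries (log2 fold change 0.25 ± 0.23). The largest difference of the cluster was in a 4-kb H3K27ac region 11.1 kb downstream of the Foxl1 start (chr8:121139001-121143000), with 4.90, 11.0 and 8.88 in young and 9.96, 17.3 and 12.2 in old libraries. These overlapped (log2 fold change 0.68 ± 0.28, adjusted p = 0.416). The H3K27me3 region 26.6 kb downstream of Foxl1 (chr8:121154501-121168500) read 21.3, 21.9 and 31.1 in young and 16.6, 16.5 and 23.1 in old libraries (log2 fold change -0.39 ± 0.17, adjusted p = 0.316), again with overlap. In the Foxc2 window the point estimates were thus positive for H3K27ac in 3 of the 4 regions and negative for H3K27me3 in both regions. Of these regions 0 passed the threshold. A 2-kb H3K27me3 region that lay only in the Foxl1 window (chr8:121176501-121178500) went the other way (log2 fold change 0.19 ± 0.32, adjusted p = 0.845 by limma).

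Foxd1 (ENSMUSG00000078302, chr13:98354242-98359305) was covered by a 120.5-kb H3K27me3 domain (chr13:98331001-98451500). Its signal was 434, 462 and 579 in young and 457, 436 and 335 in old libraries. Young replicate 3 was the highest and old replicate 3 the lowest, and the others overlapped (log2 fold change -0.26 ± 0.12, adjusted p = 0.317 by limma). The single H3K27ac region in its window (chr13:98306501-98318500) covers the start of Btf3, 35.7 kb away, and read 27.1, 27.7 and 22.0 in young and 24.3, 28.3 and 26.5 in old libraries (log2 fold change 0.05 ± 0.17). No acetylated region was thus listed at Foxd1 itself.

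Foxo1 (ENSMUSG00000044167, chr3:52268336-52353221) had 7 H3K27ac regions, of which 6 had lower means in old libraries on the log2 scale. Summed over the window the signal was 121, 110 and 102 in young and 104, 73.9 and 84.6 in old libraries. Old replicate 1 lay within the young range and the other two below it. The log2 fold change was -0.35 ± 0.10, rank 269 by p among 17149 gene windows, with an adjusted p of 0.0992 by limma. It passed only without old replicate 1 (log2 fold change -0.48, adjusted p = 0.00933) and was -0.23 with an adjusted p of 0.612 without old replicate 2.

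Introns and start of Foxo1 are given side by side. The 18.5-kb intronic region at chr3:52291001-52309500 read 39.5, 37.5 and 30.6 in young and 29.9, 24.4 and 28.5 in old libraries, without overlap (log2 fold change -0.37 ± 0.16, adjusted p = 0.437). A 4-kb intronic region at chr3:52340501-52344500 read 15.4, 11.5 and 9.87 in young and 9.96, 6.29 and 6.62 in old libraries, where old replicate 1 just reached the young range (log2 fold change -0.66 ± 0.27, adjusted p = 0.408). The region over the start (chr3:52266001-52275000) read 21.2, 17.3 and 20.7 in young and 22.7, 14.9 and 17.3 in old libraries. The ages overlapped there, with a log2 fold change of -0.12 ± 0.20 (adjusted p = 0.896). No test compared the introns with the start.

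H3K27me3 bordered Foxo1 without covering it. A 35-kb region (chr3:52233001-52268000) ends 0.336 kb before the start and read 50.6, 55.7 and 55.7 in young and 56.1, 50.0 and 58.6 in old libraries (log2 fold change 0.02 ± 0.11). It shares 2 kb with the H3K27ac region over the start, which is 22.2% of that region. It also contains 100% of the H3K27ac region at chr3:52257501-52259000 upstream. On the other side a 16-kb region downstream of the gene (chr3:52384001-52400000) read 18.0, 20.5 and 19.6 in young and 21.2, 23.9 and 28.5 in old libraries. All old libraries were higher there (log2 fold change 0.32 ± 0.15, adjusted p = 0.346).

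**Figure D4:**
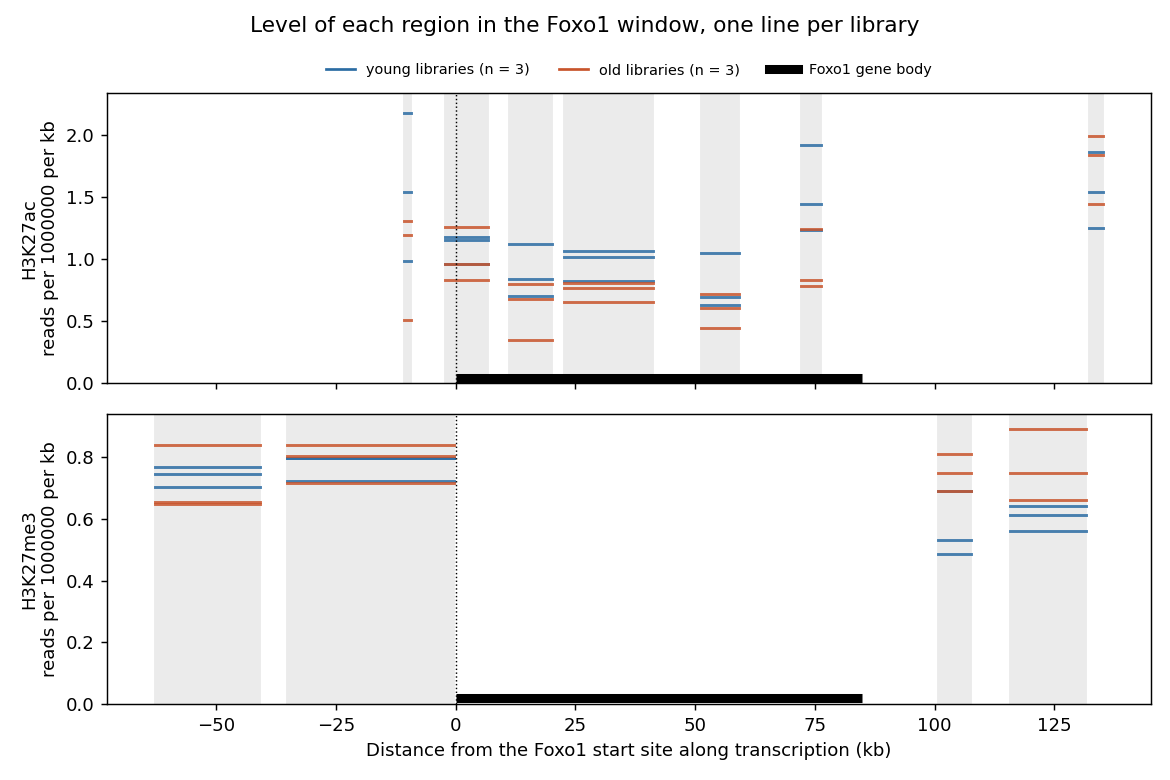
Level of each H3K27ac (top) and H3K27me3 (bottom) region of the Foxo1 window in scaled signal per kb, against distance from the start site in kb; each line is 1 library (blue young, orange old), grey bands are regions and the black bar is the gene. Blue lines lie above orange ones in the intronic H3K27ac region that begins 22.7 kb into the gene, and the H3K27me3 bands stop at the start and resume beyond the gene.

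Foxo3 (ENSMUSG00000048756, chr10:42181841-42276755, minus strand) had all 4 annotated starts under a 35-kb H3K27ac region (chr10:42244001-42279000). It read 61.7, 65.8 and 56.6 in young and 63.0, 80.2 and 62.7 in old libraries. These overlapped, with a log2 fold change of 0.15 ± 0.12 (adjusted p = 0.727 by limma). A 4.5-kb H3K27me3 region (chr10:42278501-42283000) ends 1.75 kb upstream of the principal start and read 7.31, 7.24 and 10.7 in young and 7.42, 14.2 and 10.5 in old libraries (log2 fold change 0.30 ± 0.24, adjusted p = 0.607). Both FoxO genes thus had an H3K27ac region over the start with H3K27me3 close upstream, but the window of Foxo3 held 0 separated regions.

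Foxp1 (ENSMUSG00000030067, chr6:98925338-99522721, minus strand) lay wholly in a 615-kb H3K27ac region (chr6:98918001-99533000), the longest of the 31617, which covered all 6 annotated starts. It read 1524, 1620 and 1725 in young and 1755, 1826 and 1737 in old libraries. The old libraries were all higher by a narrow margin, and the log2 fold change was 0.13 ± 0.04 (adjusted p = 0.200 by limma). On the signal as deposited it was 0.01. Outside the gene a 2.5-kb region (chr6:98893001-98895500) past the 3′ end read 5.88, 6.35 and 4.93 in young and 2.39, 0.786 and 3.06 in old libraries. All old libraries were lower (log2 fold change -1.39 ± 0.44, adjusted p = 0.232), at 9.50 reads per library on average and with old replicate 2 under the floor of 3 reads.

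Both H3K27me3 regions of the Foxp1 window lay upstream of its outermost start. A 5.5-kb region (chr6:99530001-99535500) overlaps the end of the H3K27ac region by 3 kb and read 6.52, 7.04 and 6.54 in young and 5.68, 5.69 and 7.29 in old libraries (log2 fold change -0.11 ± 0.23). The 54.5-kb region beyond it (chr6:99542001-99596500) read 59.3, 59.6 and 70.9 in young and 67.5, 93.8 and 85.6 in old libraries. Old replicate 1 lay within the young range and the other two above it (log2 fold change 0.37 ± 0.12, adjusted p = 0.154).

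Foxp2 (ENSMUSG00000029563, chr6:14901349-15441977) differed from Foxp1 in its state. A 39.5-kb H3K27me3 region (chr6:14881501-14921000) covered the principal start and read 84.7, 88.7 and 101 in young and 82.1, 75.6 and 75.4 in old libraries. All old libraries were lower (log2 fold change -0.23 ± 0.10, adjusted p = 0.296 by limma). The 4 internal starts lay under a second H3K27me3 region of 29 kb (chr6:15175001-15204000), which read 51.0, 49.5 and 45.8 in young and 53.7, 42.1 and 60.5 in old libraries (log2 fold change 0.08 ± 0.13). Inside it a 5-kb H3K27ac region (chr6:15183501-15188500) covered 2 of these internal starts and read 12.7, 10.4 and 7.24 in young and 9.17, 5.50 and 5.10 in old libraries, with overlap (log2 fold change -0.59 ± 0.29, adjusted p = 0.523). Foxp2 thus had a principal start with H3K27me3 alone, 2 internal starts with both marks and the other internal starts with H3K27me3 alone.

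The other H3K27ac regions of Foxp2 were short and intronic. The nearest to the principal start (chr6:15037001-15039500) read 5.88, 5.77 and 3.29 in young and 1.99, 3.93 and 3.06 in old libraries (log2 fold change -0.65 ± 0.40). Of the 5 regions 4 had a lower fitted value in old, and their sum was 37.2, 35.8 and 30.9 in young and 30.7, 27.5 and 20.9 in old libraries. The sums did not overlap (log2 fold change -0.40 ± 0.16, adjusted p = 0.294). A 4-kb intronic H3K27me3 region (chr6:15328501-15332500) read 3.36, 4.43 and 3.92 in young and 4.37, 7.96 and 9.51 in old libraries, where old replicate 1 lay just under the highest young value (log2 fold change 0.76 ± 0.28, adjusted p = 0.211).

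By summed window, 0 of the 10 genes passed the threshold by limma for either mark, where 0.676% of 17149 windows passed for H3K27ac and 0.438% of 17351 for H3K27me3. edgeR and DESeq2 also called 0. At an unadjusted p under 0.05 there were 4 windows for H3K27ac (Foxf2, Foxo1, Foxp1, Foxp2) and 5 for H3K27me3 (Foxc2, Foxd1, Foxf1, Foxl1, Foxp1), and the windows of Foxc2, Foxf1 and Foxl1 hold the same domain. Over all gene windows 12.1% of H3K27ac and 14.4% of H3K27me3 windows had such a p. The H3K27ac sum of Foxf2 did not overlap between ages, with a log2 fold change of -0.45 ± 0.17 (adjusted p = 0.241). The H3K27ac sum of Foxp1 did not overlap either (0.13 ± 0.04, adjusted p = 0.157). For H3K27me3, the sum of Foxo1 was separated by a small difference (0.09 ± 0.08, adjusted p = 0.632). With Foxp2, 2 of the 10 H3K27ac sums were thus separated downwards and 1 upwards, beside 5.02% and 11.6% of all H3K27ac windows. For H3K27me3 it was 0 and 1, beside 13.0% and 6.52%.

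The balance of the marks was taken as the log2 ratio of summed H3K27ac to summed H3K27me3 signal in a gene window, for libraries of the same age and sample number. The tables were normalised separately, so the ratio orders genes within these data and has no test. Foxp1 had a mean balance of 4.55 ± 0.06 (SD of 3 samples) when young and of 4.34 ± 0.21 when old, at the 96.6th percentile of 15572 genes with both marks. Foxo3 followed with 1.47 ± 0.21 and 1.50 ± 0.13. The other 8 genes had a mean below 0 at both ages, from Foxo1 (-0.04 ± 0.15 young, -0.48 ± 0.28 old) down to Foxd1 (-4.27 ± 0.38 young, -3.96 ± 0.28 old) and Foxf2. Both genes with a positive balance had H3K27ac alone over the start, but so did Foxc1, Foxc2, Foxl1 and Foxo1, whose means were below 0.

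Foxf2 was the 1 gene of the 10 whose balance did not overlap between ages. Its balance was -3.76, -3.55 and -3.96 in young and -4.14, -4.80 and -4.12 in old samples, a difference of -0.60. All 3 old samples were lower, which held for 5.82% of genes, while 13.4% of genes were separated upwards, as 0 of the 10 were. With a window of 10 kb the difference was -0.10. The separate upstream H3K27ac regions and the 11-kb upstream H3K27me3 region then drop out, while the 123-kb H3K27me3 domain downstream stays in the sum. Old minus young was -0.44 for Foxo1, -0.36 for Foxp2, -0.20 for Foxp1 and -0.18 for Foxc1, and 0.48 for Foxc2, 0.48 for Foxl1, 0.42 for Foxf1, 0.31 for Foxd1 and 0.03 for Foxo3. Foxc2, Foxl1 and Foxf1 share regions, as do Foxf2 and Foxc1, so the genes are not independent. With these windows 5 genes were lower and 5 higher, with a median of -0.08 beside 0.06 over all genes. This division depended on the window, since at 10 kb Foxc1 (0.29) and Foxp1 (0.24) turned positive, Foxo3 (-0.18) turned negative and the median was 0.23. At that width Foxo1 (-0.43) and Foxp2 (-0.35) differed by more than Foxf2. With a library left out Foxf2 ran from -0.72 to -0.38 and Foxc2 from 0.34 to 0.73, so their sizes overlapped, and Foxo3 ran from -0.03 to 0.16.

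**Figure D5:**
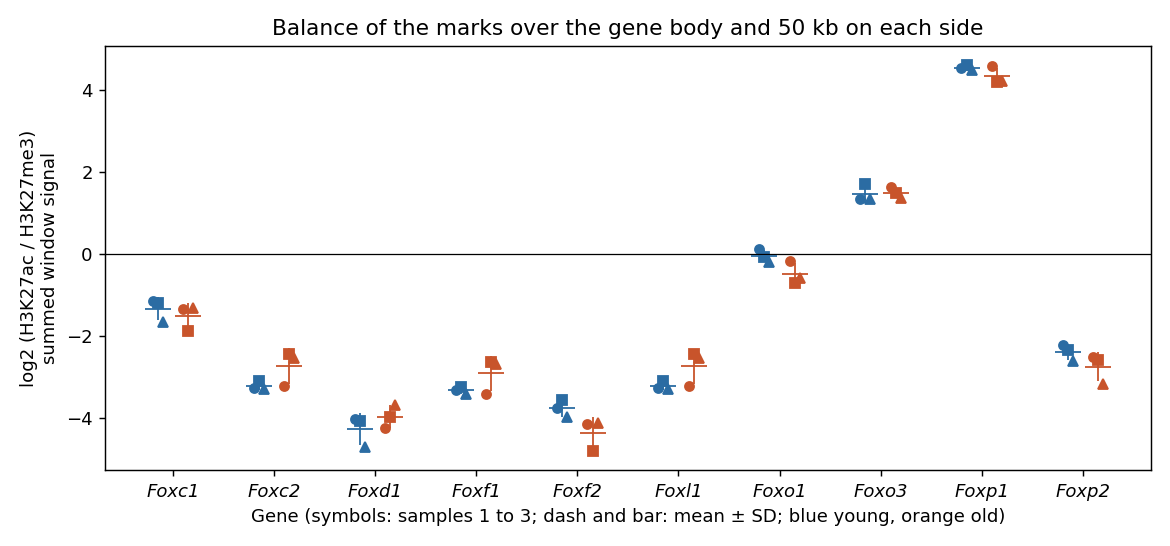
Balance of the marks per gene, as the log2 ratio of summed H3K27ac to summed H3K27me3 signal over the gene body and 50 kb on each side; each symbol is 1 sample, dashes and bars are mean ± SD (n = 3), blue is young and orange is old. Foxp1 and Foxo3 lie above 0 at both ages, and at Foxf2 all 3 old samples lie below the young ones.

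Related genes were counted by their windows in the same way. Of the 34 other forkhead genes, 23 had H3K27ac and 32 had H3K27me3 in the window. Foxs1, expressed in pericytes and other perivascular cells, passed for H3K27ac by limma, with sums of 141, 170 and 166 in young and 187, 219 and 197 in old libraries. All old libraries were higher (log2 fold change 0.34 ± 0.08, adjusted p = 0.0246). This call was lost without old replicate 2 (0.28, adjusted p = 0.365), without young replicate 1 (0.26, adjusted p = 0.478), with DESeq2 (adjusted p = 0.439), on the signal as deposited (0.22) and without trend and robust moderation in limma (adjusted p = 0.476). For H3K27me3, 29 of 32 other forkhead windows had a value below 0 and 3 above, 0 passed by limma, edgeR or DESeq2, and 6 had an unadjusted p under 0.05, beside 14.4% of all windows. Their median log2 fold change was -0.10, beside -0.04 for all windows. The share of all windows below 0 was not worked out. Foxd2 and Foxe3 had identical sums, so these windows are not independent.

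The FoxO pathway list holds the kinases above FoxO factors (Akt1, Sgk1, Pik3ca), receptors (Insr, Igf1r) and targets (Cdkn1b, Sod2, Cat, Klf2). Of these 29 genes 26 had H3K27ac alone over the start, and G6pc, Pck1 and Trim63, which act in liver glucose output and muscle protein breakdown, had H3K27me3 alone. In 28 windows with H3K27ac, 15 had a positive and 13 a negative value, with a median of 0.05 beside 0.03 for all windows. In 27 windows with H3K27me3, 10 were positive and 17 negative, with a median of -0.07 beside -0.04. By limma, edgeR and DESeq2 0 windows passed in either mark, and at an unadjusted p under 0.05 limma gave 2 of 28 and 1 of 27, beside 12.1% and 14.4% of all windows.

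Of 24 regulators that act with Foxc, Foxd and Foxf genes in mesoderm, 11 had H3K27ac alone (among them Pdgfra, Prrx1, Gli3 and Snai2), 9 H3K27me3 alone (among them Bmp4, Tcf21 and Hand2) and 4 both marks. The last were the Hedgehog effectors Gli1 and Gli2 and the mesoderm regulators Meox1 and Pax9, which shared this state with Foxf2. By limma, edgeR and DESeq2 0 of 20 H3K27ac and 0 of 20 H3K27me3 windows passed, and 1 and 6 had an unadjusted p under 0.05 by limma, beside 12.1% and 14.4% of all windows. Median log2 fold changes were 0.04 for H3K27ac and -0.08 for H3K27me3.

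Over the 12 libraries the gene most like Foxo1 in both window levels was Eps8, with a root mean square difference of 0.085 in log2 signal per kb of window. For Foxp1 it was Ttc36 (0.095) and for Foxc1 Dnase1l2 (0.125). Foxf2 had no neighbour as close, the nearest being Nop56 (0.206). Neither had Foxp2 (Cntln, 0.202), Foxd1 (Rnaseh2b, 0.154) or Foxf1 (Slc35f6, 0.136).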

How the data were processed

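H3K27ac and H3K27me3 were profiled by CUT&RUN in 12 libraries of mouse mesenchymal stem cells, 3 per mark and age. The authors deposited 1 table per mark with the signal of each region in each library. The submitters' processing notes name mm10, GRCm38, Bowtie2 and Picard without roles, and the region caller is not given in the sources used here. In all 12 columns the smallest signal above 0 was taken as 1 read. Then 100% of the deposited values were whole multiples of it within 0.01 reads, so region length had not entered the scaling. A constant length of 0.5 kb behind the signal was assumed, and the library totals and the levels per kb rest on it. Levels between genes were therefore divided by region length. Samples were grouped by their titles.

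For each mark the signal was scaled by the median of ratios and log2(signal + 0.5) was fitted over all regions with limma 3.58.1 (trend and robust, R 4.3.3), two-sided, Benjamini-Hochberg adjusted, threshold 0.05, no block. Fold changes are on the log2(signal + 0.5) scale, which understates those of low regions. Windows sum the signal of all regions that overlap a GENCODE vM21 gene body extended by 50 kb, and were fitted alike over all protein-coding genes. Regions given with values were those over the principal start (or nearest to it), those past the threshold, and per mark the 3 highest and 3 lowest with separated groups. The genes, regions and lists were chosen with earlier results of these data known. The fit was also run on simulated counts with known fold changes. Their spread followed 1 setting for all regions and was not taken from these libraries, and the outcome is not given here. Alternatives were TMM scaling, the signal as deposited, pseudocounts of 0.1 and 2, a mean of at least 10 reads, a replicate block, edgeR 4.0.16 and DESeq2 1.42.0 on recovered reads, no trend or robust moderation, each library left out, a 10-kb window, and region centres. Leaving out a library leaves 2 in its age, which share the spread of the fit.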

Additional observations from a re-analysis of the deposited data

How the results depend on the processing

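Of the 108 values recomputed for the counts, medians and balance, 98 kept their reading. The H3K27me3 count of forkhead regions past the threshold was 0 and became 1 on the signal as deposited, with a pseudocount of 2 and with edgeR, and ranged from 0 to 1 when a library was left out; each time this was the region 31.8 kb upstream of Foxf2. The H3K27ac count was 0 throughout, for DESeq2 only among the regions to which it gave an adjusted p. The H3K27ac window count ranged from 0 to 1 (Foxo1, without old replicate 1). Over all regions, 26 H3K27ac calls became between 0 (no trend or robust moderation) and 105 (signal as deposited), and 137 H3K27me3 calls between 10 (without young replicate 3) and 774 (signal as deposited). The signal as deposited took the median of all regions to -0.12 (H3K27ac) and -0.13 (H3K27me3), and the forkhead medians to -0.18 and -0.10. Leaving out a library gave forkhead medians from -0.11 to 0.048 for H3K27ac, the positive one without young replicate 2, and from 0.020 to 0.077 for H3K27me3. The median balance difference was 0.23 with a 10-kb window (-0.08 with 50 kb) and ran from -0.15 to 0.02 with a library left out.

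The sample titles do not say whether equal replicate numbers pair young and old samples, and the correlations below cannot settle it. Deviations of same-numbered young and old libraries correlated at 0.066, 0.017 and -0.054 for H3K27ac and 0.025, 0.043 and -0.078 for H3K27me3. With the replicate block the calls over all regions went from 26 to 81 and from 137 to 309, and the forkhead count for H3K27me3 to 1 (the Foxf2 region, log2 fold change 0.89).

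The balance per gene was not checked for a change of sign in the next count, and Foxc1, Foxp1 and Foxo3 changed it as described above. Of 728 values for single regions, windows and genes, 27 of regions or windows changed sign, in values between -0.30 and 0.09 as reported. On the signal as deposited they were H3K27ac over Foxf2 (-0.10) and at Btf3 near Foxd1 (-0.071), and H3K27me3 over Foxf2 (-0.10), before Foxo1 (-0.10), in the Foxo1 window (-0.031) and over the internal starts of Foxp2 (-0.041). With edgeR and DESeq2 they were H3K27ac over Foxc1 (0.042 and 0.018) and the H3K27me3 window of Foxp2 (0.013 and 0.011). With a library left out the ranges were -0.10 to 0.19 (H3K27ac over Foxf2), -0.14 to 0.13 (over Foxc1), -0.28 to 0.012 (over Foxo1) and -0.057 to 0.10 (at Btf3). For H3K27me3 they were -0.14 to 0.25 (over Foxf2), -0.024 to 0.090 (before Foxo1), -0.62 to 0.077 (before Foxc1), -0.081 to 0.012 (Foxp2 window) and -0.031 to 0.23 (internal starts of Foxp2). The cause was not tested. The filter on reads kept 25 of 32 H3K27ac and 28 of 29 H3K27me3 forkhead regions. DESeq2 gave no adjusted p for the region 31.8 kb upstream of Foxf2, where its log2 fold change was 0.93.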
